A study of Mus musculus with 26 samples.

Results

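Sham joints were compared between 16 weeks and 2 weeks after surgery, across all genes measured. The members are the 6 arrays whose titles name these groups, 3 pools at each time, of 26 arrays in all. All mice were male C57BL/6 that had a sham operation on the knee at 12 weeks of age, the control for destabilization of the medial meniscus (DMM). The mice of the 2-week group were therefore 14 weeks old and those of the 16-week group 28 weeks old, and time since surgery cannot be told apart from age. Each group had 9 mice, and the RNA of 3 randomly chosen mice made 1 pool, so the unit of replication is the pool. Each pool held RNA of the medial joint compartment, a block with articular cartilage, the bone beneath it, meniscus, ligaments, capsule and synovium. The other 20 arrays, from unoperated joints at time 0, sham joints at 4 and 8 weeks and DMM joints, entered the fit and served for comparison. The time 0 mice were 12 weeks old, the sham mice of 4 and 8 weeks 16 and 20 weeks, and the DMM mice 14 to 28 weeks. Time 0 thus differs from every sham group in both operation and age.

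A sham operation opens the joint but leaves the meniscus attached, so it combines a healing wound with a joint that is still mechanically stable. Chondrocytes build articular cartilage from type II collagen fibrils, which carry type IX and type XI collagen and enclose the large proteoglycan aggrecan. Fibroblasts build capsule, ligament and scar from types I, III, V, VI, XII and XIV collagen together with small leucine-rich proteoglycans, and matrix metalloproteinases cut both kinds of matrix.

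The values are log2 signals, on which a difference of 1 is a doubling. The fit in limma covered 22489 probe sets whose signal averaged over 7.93 on the log2 scale. They stand for 11511 genes, each represented by its brightest probe set. A gene is called higher or lower at 16 weeks when its p-value, adjusted by the method of Benjamini and Hochberg over all probe sets tested, is under 0.05. Errors given with a difference are standard errors of this fit over 3 and 3 pools. The sample titles name only joint tissue, and the pools held markers of tissues that the authors describe for it. At 2 weeks the 3 pools held Col2a1 of cartilage at 13.67 to 14.11, Ibsp of bone at 13.52 to 14.19, Prg4 of the synovial lining at 14.58 to 15.33 and Tnmd of ligament at 9.54 to 10.96. They also held skeletal muscle, with Ckm at 9.66 to 13.7, and bone marrow, with Ngp of neutrophils at 15.2 to 15.6 and Alas2 of red cell precursors at 11.1 to 13.0. Matn1 of cartilage lay under the filter in all 6 pools, between 6.33 and 7.16.

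The 2-week pools were less alike than the 16-week pools. Each probe set was first centred on its mean over all 26 arrays. The 16-week pools then correlated with each other at 0.69 to 0.75, and 2-week replicates 2 and 3 at 0.68. Replicate 1 of the 2-week pools stood apart, with correlations of -0.06 and -0.31 to the other two. The mean log2 signal of the 26 muscle genes tested was 12.1, 10.9 and 9.26 in 2-week replicates 1, 2 and 3, and 11.3, 11.4 and 10.2 in the 16-week replicates. Replicate 3 was thus the lowest in muscle at 2 weeks, and it was also the lowest for the 16 red cell genes tested, with a mean of 10.7 against 12.0 and 11.6. The ratio of 3′ to 5′ Gapdh control signal, a sign of RNA quality, was 0.31 to 0.38 on the log2 scale at 2 weeks and 0.31 to 0.48 at 16 weeks. A scan date or batch of the arrays is not given in the sources used here.

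Between the times 3864 genes differed (33.6% of those tested), of which 1939 were higher at 16 weeks (16.8%) and 1925 lower (16.7%). More genes fell than rose by a large amount. Of the called genes, 267 fell by at least 1 on the log2 scale and 17 rose by as much, and 28 fell by at least 2. Without 2-week replicate 1 these counts were 418, 118 and 44. The median difference was -0.50 among the genes that fell, 0.35 among those that rose and 0.04 over all genes tested. The 3 pools of 16 weeks lay below all 3 pools of 2 weeks for 1850 of the 1925 genes that fell, and above them for 1737 of the 1939 that rose. Over all genes tested, 46.9% had their pools apart, 21.1% downwards and 25.7% upwards. On probe sets, 3464 were called higher (15.4%) and 3446 lower (15.3%). Without the 2-week pool that stood apart, 2644 genes were higher (23%) and 2312 lower (20.1%), and 1882 of the genes that rose and 1888 of those that fell stayed called. With a score of 6 muscle genes as a covariate, 3460 probe sets were higher and 3465 lower.

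The falls depended less on single pools than the rises. When each of the 6 pools was left out in turn, 1189 of the 1925 lower genes kept their call every time (61.8%) and 600 of the 1939 higher genes (30.9%). Of the 267 genes that fell by at least 1, 256 kept it. The largest loss came without 2-week replicate 3, which left 1344 probe sets higher and 2109 lower. The number of higher probe sets was also more than 1.5 times smaller without 2-week replicate 2 (2020), 16-week replicate 1 (1737) and 16-week replicate 3 (2080). Taken without the other conditions, the 6 pools gave 803 probe sets higher and 1786 lower.

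**Figure D1:**
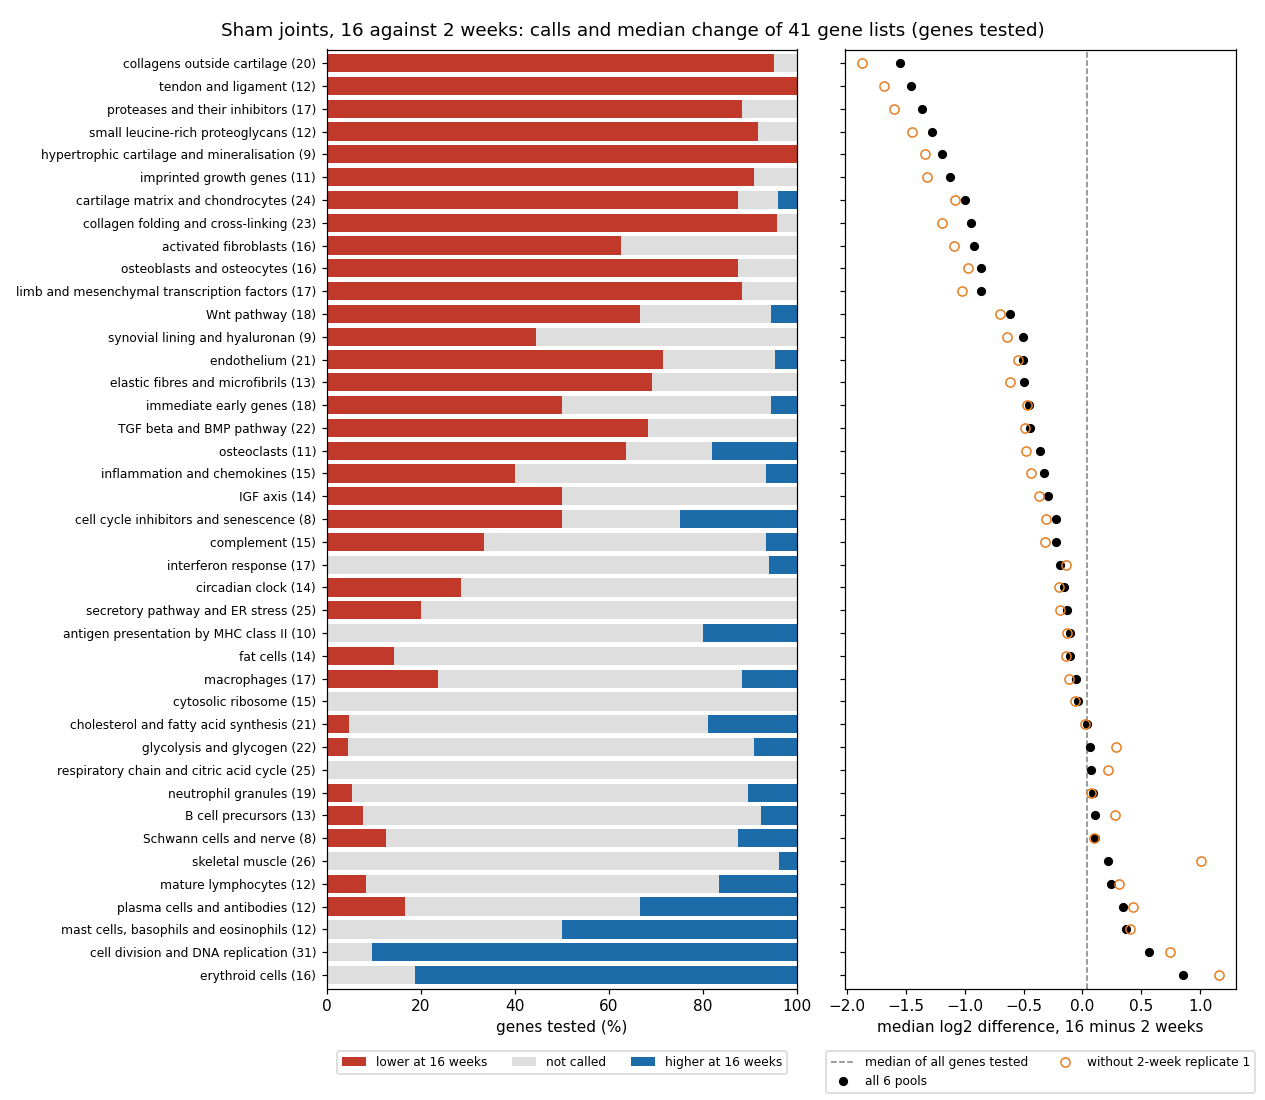
Gene lists in sham joints at 16 against 2 weeks. Left, the share of each list's tested genes (number in parentheses) called lower (red), higher (blue) or not called (grey). Right, the median log2 difference of each list, 16 minus 2 weeks, over all 6 pools (filled) and without 2-week replicate 1 (open), with the median of all genes as a dashed line. Collagens outside cartilage lie lowest at -1.55, and red cell genes highest at 0.85.

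Cartilage matrix genes were among the largest falls. Of 24 cartilage genes tested, 21 fell and 1 rose, and the median difference was -0.99. Col9a1, a chain of the type IX collagen on cartilage fibrils, was measured at 12.29, 12.74 and 13.03 in the 2-week pools and at 7.94, 9.13 and 8.48 in the 16-week pools. Every 16-week pool lay more than 3 log2 units under every 2-week pool. The fitted difference was -4.17 ± 0.51 (adjusted p = 2.27e-05) and the level was 18.0-fold lower on its brightest probe set. As the mean of its probe sets the difference was -3.06. Col2a1, the chain of type II collagen, stood at 13.67, 13.83 and 14.11 at 2 weeks and at 10.36, 11.26 and 11.14 at 16 weeks. It fell by 2.95 ± 0.33 (adjusted p = 1.24e-05), again with no overlap between the groups. Matn3, a matrilin that links cartilage fibrils, went from 11.88, 12.28 and 12.39 to 9.29, 9.78 and 9.49, a difference of -2.67 ± 0.33 (adjusted p = 2.44e-05).

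Other cartilage genes fell by smaller amounts. Hapln1, the link protein between aggrecan and hyaluronan, fell by 2.13 ± 0.28 (adjusted p = 3.3e-05). Acan, aggrecan itself, was added to the named genes as a tissue marker and fell by 1.36 ± 0.19 (adjusted p = 5.14e-05). Its pools were 11.33, 11.51 and 12.11 at 2 weeks and 10.15, 10.23 and 10.47 at 16 weeks. Epyc, epiphycan, fell by 2.10 ± 0.25. Comp and Chad, which bind collagen, fell by 1.01 ± 0.17 and 0.81 ± 0.15. The gene that rose was Sox6, a transcription factor that drives cartilage genes and is also expressed in red cell precursors. It rose by 0.71 ± 0.20 (adjusted p = 0.0124), and its call was lost without 2-week replicate 3 or 16-week replicate 1. In bulk tissue, fewer chondrocytes in the block and less of these RNAs per chondrocyte cannot be told apart.

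Of the 3 cartilage genes that fell most, Col9a1, Col2a1 and Matn3, Col2a1 had no promoter in the set used. The promoters of Col9a1 and Matn3 are shown. They run from 250 bases before the transcription start to 50 after it in RefSeq, build GRCm38.p6, 5′ to 3′ on the strand of the gene. RefSeq lists 2 starts for Col9a1, at chr1:24177360-24177659 and chr1:24194953-24195252 (plus strand), and 1 for Matn3, at chr12:8947679-8947978 (plus strand).
Col9a1, upstream start: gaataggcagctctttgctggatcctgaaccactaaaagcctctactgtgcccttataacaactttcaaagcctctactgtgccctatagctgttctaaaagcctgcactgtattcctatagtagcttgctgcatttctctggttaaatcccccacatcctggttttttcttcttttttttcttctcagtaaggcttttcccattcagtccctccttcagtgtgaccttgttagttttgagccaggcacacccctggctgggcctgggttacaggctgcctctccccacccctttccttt
Col9a1, downstream start: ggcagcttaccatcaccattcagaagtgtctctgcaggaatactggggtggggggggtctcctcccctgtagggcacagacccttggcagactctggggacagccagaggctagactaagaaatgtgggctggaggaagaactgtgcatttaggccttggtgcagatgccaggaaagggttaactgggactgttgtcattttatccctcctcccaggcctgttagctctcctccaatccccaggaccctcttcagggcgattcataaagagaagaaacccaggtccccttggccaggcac
Matn3: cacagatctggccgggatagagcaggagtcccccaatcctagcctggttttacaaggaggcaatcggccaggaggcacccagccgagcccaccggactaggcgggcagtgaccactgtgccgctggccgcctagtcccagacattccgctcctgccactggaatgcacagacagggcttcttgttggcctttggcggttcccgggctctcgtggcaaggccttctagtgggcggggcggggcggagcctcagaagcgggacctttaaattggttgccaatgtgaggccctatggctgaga
These 3 windows were searched on both strands for AACAAT and ACAAAG, core letters bound by SOX factors, and for the TATA box TATAAA. None of the letters was found in them, so none are in capitals. Over all 32851 promoters of the table, 10.7% held AACAAT, 18.7% ACAAAG and 13.6% TATAAA. Of the 18 tested cartilage genes with a promoter in the table, 2, 2 and 3 held them in any of their promoters, a count by gene and not by promoter.

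Genes of hypertrophic cartilage and of bone fell with the cartilage matrix. All 9 hypertrophic genes tested fell, with a median of -1.19. Col10a1, the collagen of hypertrophic chondrocytes, was measured at 10.83, 11.24 and 11.63 at 2 weeks and at 7.92, 8.57 and 8.53 at 16 weeks. It fell by 2.89 ± 0.34 (adjusted p = 1.75e-05), the most of the list. The collagenase Mmp13 fell by 1.43 ± 0.18, the channel gene Panx3 by 1.49 ± 0.22 and the parathyroid hormone receptor Pth1r by 1.21 ± 0.14. Of 16 osteoblast and osteocyte genes tested, 14 fell and none rose, with a median of -0.86. Phex, a peptidase needed for normal phosphate handling, fell by 1.25 ± 0.14, Ibsp, bone sialoprotein, by 1.19 ± 0.15 and Dmp1 of osteocytes by 1.14 ± 0.23. With only the 6 pools fitted, 8 of the 14 kept their call.

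Osteoclast genes, which dissolve bone, fell in part. Of 11 tested, 7 fell and 2 rose, against 16.7% of all genes lower and 16.8% higher, and the median was -0.36. Ctsk, the collagen-cutting cathepsin of osteoclasts, had 13.10, 13.65 and 13.90 at 2 weeks and 12.31, 12.24 and 12.30 at 16 weeks, a difference of -1.26 ± 0.16 (adjusted p = 3.01e-05). Acp5, their acid phosphatase, fell by 1.00 ± 0.14. The genes that rose were Itgb3 and Car2, which are also expressed in platelet precursors and in red cells, by 0.31 ± 0.10 and 0.38 ± 0.14. These 2 are near the share of all genes higher and are given as values only. Car2 was called in limma at an adjusted p of 0.04996, and its pools overlapped. Without 2-week replicate 3 the list had 4 genes lower.

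**Figure D2:**
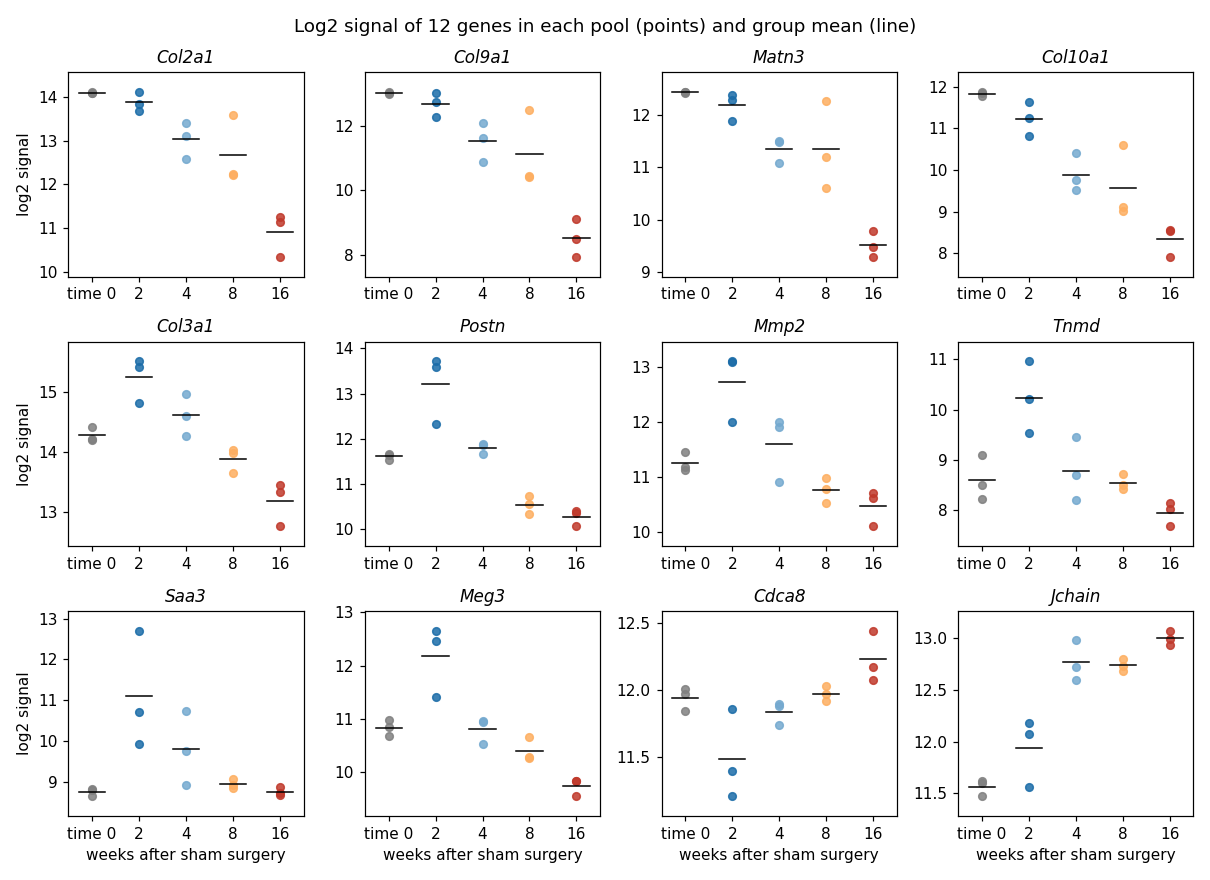
Log2 signal of 12 genes in each sham pool (points) and the mean of each group (line) at each time after surgery (in order, not to scale), with unoperated joints at time 0. The top row, genes of cartilage, has a lower mean at 2 weeks than at time 0. In the middle row and in Saa3 and Meg3 the 2-week mean is the highest of the 5 groups, and Cdca8 and Jchain are highest at 16 weeks.

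Collagens of fibrous tissue fell as a group. Of 20 collagens outside cartilage tested, 19 fell and none rose, and the median of -1.55 was the lowest of the 41 lists. Col3a1, the type III collagen of young fibrous tissue, was measured at 14.81, 15.40 and 15.50 at 2 weeks and at 12.76, 13.34 and 13.46 at 16 weeks. It fell by 2.06 ± 0.20 (adjusted p = 5.6e-06). Col14a1 and Col12a1, which lie on fibril surfaces, fell by 2.14 ± 0.27 and 2.13 ± 0.24, and the beaded-filament chains Col6a2 and Col6a1 differed by -2.12 ± 0.28 and -2.08 ± 0.25. The bright type I chains Col1a1 and Col1a2, which bone and fibrous tissue share, fell by 0.90 ± 0.12 and 0.62 ± 0.10, and Col1a2 fell by 1.05 as the mean of its probe sets. The enzymes that fold and cross-link collagen fell with their substrates, 22 of 23 tested, with a median of -0.95. Plod2, a lysyl hydroxylase, fell by 1.77 ± 0.24, Pcolce, which speeds the trimming of procollagen, by 1.71 ± 0.24, and Loxl1, a lysyl oxidase, and Serpinh1, the collagen chaperone, differed by -1.55 ± 0.20 and -1.48 ± 0.26.

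Small leucine-rich proteoglycans, which coat collagen fibrils, fell in 11 of 12 cases, with a median of -1.28. Kera, keratocan, ran from 9.94, 11.48 and 10.36 at 2 weeks to 7.31, 8.24 and 7.77 at 16 weeks, a difference of -2.82 ± 0.39 (adjusted p = 5.67e-05) with no overlap. The signal of 2 of the 16-week pools was under the array median, and with signals set to at least that median the difference was -2.56. Fmod, fibromodulin, fell by 2.07 ± 0.21 and Lum, lumican, by 1.71 ± 0.20. All 12 tendon and ligament genes fell, with a median of -1.45. Postn, periostin, a matrix protein of healing and loaded fibrous tissue, had 12.33, 13.71 and 13.60 at 2 weeks and 10.37, 10.41 and 10.07 at 16 weeks. It fell by 2.93 ± 0.29 (adjusted p = 5.6e-06), and 2-week replicate 1 was the lowest of its group. Tnmd, tenomodulin, a marker of tendon and ligament cells, fell by 2.28 ± 0.34 (adjusted p = 8.78e-05). Kera, Fmod and Col14a1 belong to more than 1 of these lists and were counted in each.

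Fibroblast genes and matrix proteases moved the same way. Of 16 genes of activated fibroblasts tested, 10 fell and none rose, with a median of -0.92. Cthrc1, a protein of collagen-producing repair cells, fell by 2.32 ± 0.35. Ptn, pleiotrophin, and Dpt, dermatopontin, differed by -2.20 ± 0.29 and -2.12 ± 0.26. Of 17 proteases and inhibitors tested, 15 fell and none rose, with a median of -1.36. Mmp2, a gelatinase, was measured at 11.99, 13.09 and 13.10 at 2 weeks and at 10.09, 10.69 and 10.61 at 16 weeks, a difference of -2.26 ± 0.28 (adjusted p = 2.37e-05). Its membrane-bound activator Mmp14 fell by 1.54 ± 0.20 and the inhibitor Timp1 by 1.60 ± 0.40. Mmp3, stromelysin, fell by 2.01 ± 0.52 (adjusted p = 0.00649), from 9.88, 12.01 and 10.38 to 8.47, 8.72 and 9.06. Its call was lost without 2-week replicate 2, the highest pool.

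Other lists of the connective tissue fell in larger or smaller part. Of 13 elastic fibre genes 9 fell, among them the microfibril protein Mfap5 and Fbln2, fibulin, with differences of -1.81 ± 0.33 and -1.54 ± 0.27. The synovial lining list had 4 of 9 lower, Prg4, Has1, Clic5 and Cemip2, at -0.55, -0.57, -0.72 and -0.51. Without 2-week replicate 3 this list had none lower, and without 2-week replicate 1 it had 7, while leaving out 16-week replicates 1, 2 and 3 gave 1, 2 and 2. Of 17 transcription factors of limb and mesenchyme, 15 fell with a median of -0.86, led by Prrx1 at -1.37 ± 0.19, Tbx18 at -1.23 ± 0.21 and Twist1 at -1.23 ± 0.17. Of 11 imprinted growth genes, which are expressed from 1 parental copy, 10 fell with a median of -1.12. Meg3, a long noncoding RNA of this kind, stood at 11.41, 12.65 and 12.46 at 2 weeks and at 9.55, 9.84 and 9.83 at 16 weeks, and fell by 2.43 ± 0.24 (adjusted p = 5.6e-06). Its fall was 1.20 as the mean of its 8 probe sets, of which 7 were called lower.

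C1qtnf3, a secreted protein of the C1q and TNF family also called cartducin, fell to signals under the array medians. Its pools were 8.69, 11.10 and 9.55 at 2 weeks and 4.91, 5.11 and 5.45 at 16 weeks, a difference of -4.62 ± 0.61 (adjusted p = 3.64e-05). With signals set to at least the array median the difference was -1.85, less than those of Col9a1, Col2a1 and Postn, so the measured size of the fall is uncertain. Itm2a, a membrane protein of early chondrocytes and other cells, fell by 2.41 ± 0.26. Angptl1, a secreted protein related to the angiopoietins, fell by 2.70 ± 0.40 on its brightest probe set and by 0.98 as the mean of its 3 probe sets, of which 1 was called.

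In the growth factor lists between 7 and 15 genes fell. Of 14 genes of the IGF axis 7 fell, led by Igf1, the growth factor itself. Its pools were 11.53, 12.62 and 12.69 at 2 weeks and 10.23, 10.27 and 10.21 at 16 weeks, and it fell by 2.04 ± 0.27 (adjusted p = 3.3e-05). Igfbp3, a carrier of Igf1 in blood and tissue, fell by 1.18 ± 0.20. Of 22 TGF beta and BMP genes 15 fell, among the ligands Tgfb2 by 1.15 ± 0.19 and Tgfb3 by 1.07 ± 0.13, and among the secreted modulators Fstl1 by 1.70 ± 0.21. Of 18 Wnt genes 12 fell, led by the secreted inhibitors Dkk3 at -1.87 ± 0.37, Sfrp2 at -1.85 ± 0.22 and Wif1 at -1.28 ± 0.23. The Wnt gene that rose was Lef1, a transcription factor that lymphoid precursors also express, by 0.69 ± 0.23. That call was lost without 2-week replicate 2 or 3 and without 16-week replicate 1 or 3.

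Some inflammation and complement genes fell. Of 15 inflammation genes tested, 6 fell and 1 rose, against 16.7% of all genes lower and 16.8% higher, and the median was -0.33. Saa3, an acute phase protein made by inflamed tissue, had 10.71, 12.70 and 9.92 at 2 weeks and 8.69, 8.72 and 8.87 at 16 weeks. The 2-week pools spread over more than 2 log2 units and the 16-week pools over less than 0.2. It fell by 2.35 ± 0.67 (adjusted p = 0.0117), and the call was lost without 2-week replicate 2. Tnfaip6, which binds hyaluronan in inflamed joints, fell by 1.69 ± 0.40, the chemokine Ccl8 by 1.57 ± 0.31 and the alarmin Il33 by 1.40 ± 0.32. The chemokine Ccl5, which lymphocytes make, rose by 0.55 ± 0.14 (adjusted p = 0.00493), and its call was lost without 2-week replicate 3. Of 15 complement genes 5 fell, C1s1, C1ra, Serping1, C3ar1 and Cfb, and Cfp rose by 0.27 ± 0.09, a call that was lost as the mean of its probe sets. C1s1, a protease that starts the cascade, fell by 1.41 ± 0.22 (adjusted p = 0.000117). Without 2-week replicate 1, 9 complement genes were lower. Of 17 interferon response genes 1 rose, Rsad2, an antiviral enzyme, by 0.73 ± 0.23.

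Of 21 endothelial genes tested, 15 fell and 1 rose, with a median of -0.50. Aplnr, the apelin receptor of growing vessels, fell by 1.48 ± 0.18, Cd34 by 1.09 ± 0.15 and Cdh5, the cadherin of endothelial junctions, by 0.77 ± 0.12. The exception was Vwf, von Willebrand factor, which is also made by platelet precursors. It was measured at 10.36, 10.10 and 9.86 at 2 weeks and at 10.51, 10.55 and 10.67 at 16 weeks, a rise of 0.47 ± 0.10 (adjusted p = 0.00157). Of 18 immediate early genes, which respond within minutes to stress and dissection, 9 fell, led by Fos at -1.11 ± 0.29, and Zfp36 rose by 0.26 ± 0.10. The call of Fos was lost without 2-week replicate 2.

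**Figure D3:**
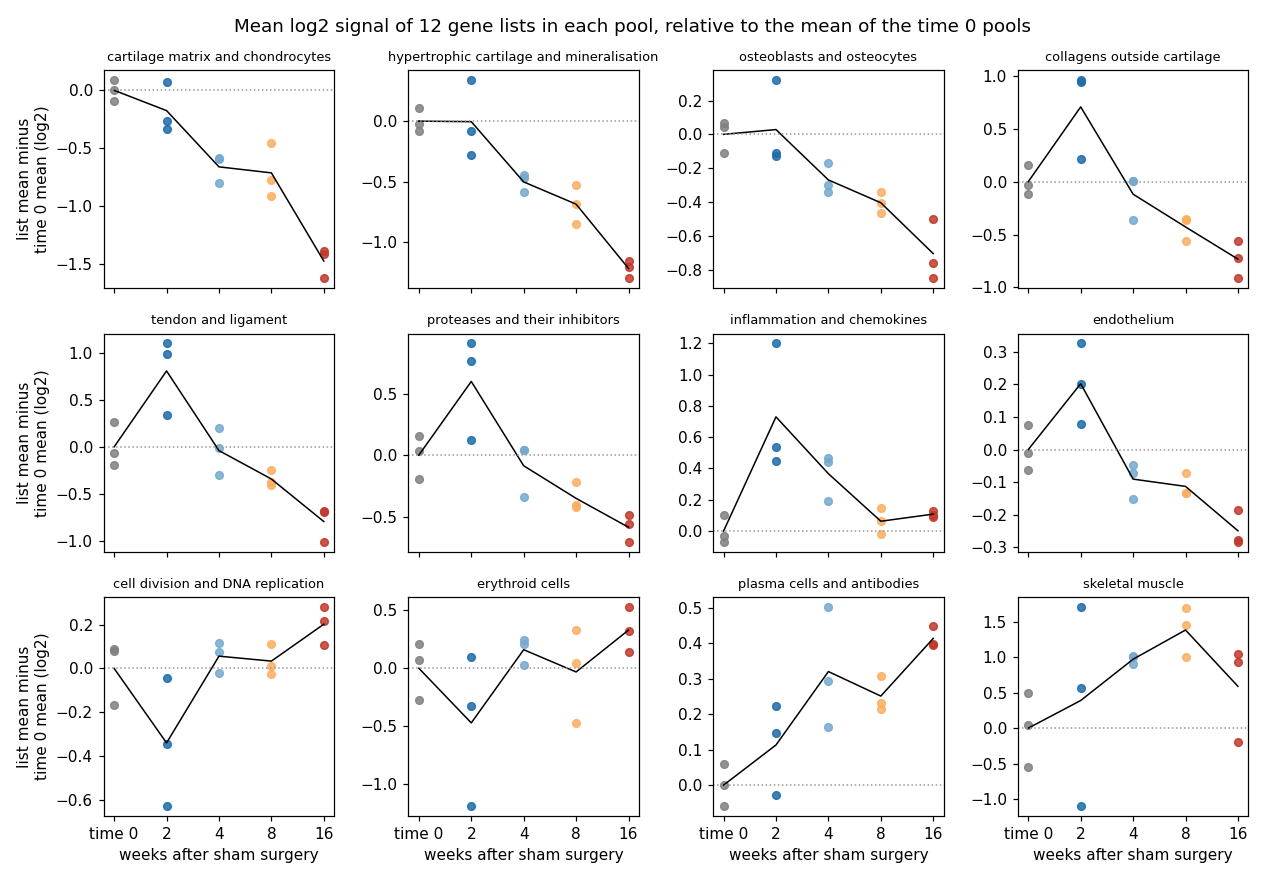
Mean log2 signal of the tested genes of 12 lists in each sham pool, minus the mean of the 3 time 0 pools, at each time after surgery (in order, not to scale). Points are pools and the line joins group means. The mean of the cartilage list is already below time 0 at 2 weeks, the fibrous collagen, tendon, protease and inflammation lists peak at 2 weeks, and the 2-week pools are widest apart for muscle and red cell genes.

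The intermediate weeks and time 0 show from where these genes fell. These levels are described without a test. Of the 1925 genes that fell, 93.5% had their 4-week mean between those of 2 and 16 weeks and 89.0% their 8-week mean, against 58.0% and 53.5% of all genes tested. The falling genes were chosen by the gap between 2 and 16 weeks, and a wider gap holds other means more often. The excess over all genes, here and for time 0, is therefore built in by that choice and is description only. A median of 60.7% of the fall had taken place by 4 weeks, near the 64.1% of the change over all genes tested. The time 0 mean lay between the 2-week and 16-week means for 89.8% of the genes that fell, against 61.4% of all genes, so most of these genes were above time 0 at 2 weeks and below it at 16 weeks. In 139 of the 1925 (7.22%) time 0 lay above both.

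Cartilage genes differed from fibrous genes in this course. Of the 21 cartilage genes that fell, 18 were at or above their 2-week level at time 0, with a median difference between 2 weeks and time 0 of -0.18. The means of Col2a1 were 14.09 at time 0 and then 13.87, 13.03, 12.68 and 10.92 over the 4 sham times. At 8 weeks replicate 3 lay apart, with Col2a1 at 13.57 against 12.25 and 12.21. Of the 19 fibrous collagens that fell, none was at or above its 2-week level at time 0, and their median difference from time 0 was 0.67 at 2 weeks and -0.74 at 16 weeks. Postn stood at a mean of 11.61 at time 0 and then at 13.21, 11.80, 10.54 and 10.28 over the same times. Over all 15 inflammation genes tested, the median difference from time 0 was 0.43 at 2 weeks and 0.13 at 16 weeks. For the 6 of them that fell, which were chosen by their excess at 2 weeks over 16 weeks, it was 1.47 and -0.01. Saa3, for example, had means of 8.76 at time 0 and 8.76 at 16 weeks. The osteoblast list was split, with 7 of its 14 falling genes at or above the 2-week level at time 0.

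Genes of dividing cells rose at 16 weeks. Of 31 genes of cell division and DNA replication tested, 28 rose and none fell, with a median of 0.57. Cdca8, a subunit of the complex that corrects chromosome attachment, was measured at 11.86, 11.40 and 11.21 at 2 weeks and at 12.44, 12.07 and 12.17 at 16 weeks, a rise of 0.74 ± 0.14 (adjusted p = 0.000875). The mitotic kinases Aurka and Aurkb rose by 0.68 ± 0.13 and 0.66 ± 0.13, and Nusap1, a spindle protein, by 0.72 ± 0.16. Mki67, the proliferation marker, rose by 0.52 ± 0.13, a call that was lost without 2-week replicate 3. The list had between 20 and 29 genes higher when 1 pool was left out and 6 when only the 6 pools were fitted. The level at time 0 was at or above that of 2 weeks for all 28, against 1864 of all 1939 genes that rose. Their median difference between 2 weeks and time 0 was -0.36, against -0.17 over all genes that rose. The rising genes were chosen by a 2-week level under that of 16 weeks, so the place of time 0 is description only. The mean of the list was 11.44, 11.14 and 10.85 in the 2-week pools, in the same order as the red cell list.

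The promoters of Cdca8 and Ccnb2, cyclin B2, are shown because they carry letters typical of mitotic genes. Ccnb2 was picked after its values were seen and rose by 0.65 ± 0.16 (adjusted p = 0.00479). The windows have the same bounds and source as above, at chr4:124936868-124937167 for Cdca8 and chr9:70421505-70421804 for Ccnb2, both on the minus strand. Capitals mark CCAAT, the box bound by NF-Y, and TTTGAA, the core of the cell cycle homology region, on either strand.
Cdca8: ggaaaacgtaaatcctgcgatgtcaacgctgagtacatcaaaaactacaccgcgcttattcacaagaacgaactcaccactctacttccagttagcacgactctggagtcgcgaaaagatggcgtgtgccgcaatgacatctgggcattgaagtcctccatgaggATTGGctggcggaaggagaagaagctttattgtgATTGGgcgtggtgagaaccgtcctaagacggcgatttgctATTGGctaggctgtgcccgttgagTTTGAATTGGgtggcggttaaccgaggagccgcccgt
Ccnb2: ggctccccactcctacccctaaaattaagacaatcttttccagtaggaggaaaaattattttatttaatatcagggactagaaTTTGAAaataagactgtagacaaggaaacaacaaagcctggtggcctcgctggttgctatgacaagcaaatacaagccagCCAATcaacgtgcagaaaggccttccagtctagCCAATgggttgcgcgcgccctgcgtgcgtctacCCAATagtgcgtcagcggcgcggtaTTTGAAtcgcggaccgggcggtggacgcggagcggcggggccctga
Cdca8 held CCAAT 4 times and TTTGAA 1 time, with a shared base where the last of them meet, and Ccnb2 held them 3 and 2 times. Of the 27 tested genes of the list with a promoter, 23 held CCAAT (85.2%) and 13 held TTTGAA (48.1%) in any of their promoters. Of all promoters of the table, tested genes or not, 37.4% and 17.9% held them. These shares count single promoters, so genes with several starts make the 2 measures unlike. These motifs were chosen after the list was seen to rise, and the shares say nothing of what bound the promoters.

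Red cell genes rose as well, but with fewer pools apart. Of 16 tested, 13 rose and none fell, with a median of 0.85, and 11 had their pools apart. Rhd, a membrane protein of the Rhesus complex, ran from 12.11, 11.52 and 10.52 at 2 weeks to 12.57, 12.17 and 12.43 at 16 weeks, a rise of 1.01 ± 0.30 (adjusted p = 0.0146). The lowest value was that of 2-week replicate 3, the pool that was also lowest in muscle. Without it none of the 16 genes was called, without 16-week replicates 1 and 3 it was 1 and 6, and with only the 6 pools fitted none. Without 2-week replicate 1 all 16 rose. The part of the marrow content of the pools in this list was not tested.

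Part of the antibody genes rose. Of 12 genes of plasma cells and antibodies tested, 4 rose and 2 fell, against 16.8% of all genes higher and 16.7% lower, and the median was 0.34. Jchain, which joins antibody chains into dimers and pentamers, was measured at 12.18, 12.07 and 11.57 at 2 weeks and at 13.07, 12.99 and 12.94 at 16 weeks, a rise of 1.06 ± 0.15 (adjusted p = 7.81e-05). Igha, the heavy chain of IgA, rose by 1.05 ± 0.28 and the light chain genes Iglv1 and Igk by 1.01 ± 0.20 and 0.90 ± 0.14. All 4 kept their calls when each pool was left out in turn. The 2 genes that fell match the share of all genes lower and are given as values only. They were Sdc1, a syndecan that fibroblasts and epithelia also carry, at -1.27 ± 0.18, and Fkbp11, a prolyl isomerase, at -0.56 ± 0.21. Fkbp11 was not called as the mean of its probe sets. Jchain had a mean of 11.56 at time 0 and means of 11.94, 12.77, 12.74 and 13.00 over the 4 sham times. A probe set for a variable segment of the kappa light chain also rose. Its pools were 7.93, 7.80 and 7.84 at 2 weeks and 8.69, 9.60 and 9.79 at 16 weeks, a call with an adjusted p of 0.000518 in limma. The 2-week signals lay under the medians of their arrays, and with signals set to at least the array median the difference was 1.42. Probe sets of variable segments can bind RNA of related segments, so the segment is not named.

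Of 12 genes of mast cells, basophils and eosinophils, 6 rose and none fell, with a median of 0.37, led by Fcer1a, a chain of the IgE receptor, at 0.75 ± 0.20 and Mcpt8, a basophil protease, at 0.70 ± 0.17. In the neutrophil, B cell precursor, lymphocyte, macrophage and MHC class II lists, the shares called lay near or under those of all genes (16.8% higher and 16.7% lower), and their genes are given as values only. Of 19 neutrophil genes Csf3r and Ms4a3 rose, by 0.47 ± 0.13 and 0.65 ± 0.22, and Mmp9, which osteoclasts also make, fell by 0.34 ± 0.10. Of 13 B cell precursor genes Lef1 rose and Ebf1, which fat and stromal cells share, fell by 0.70 ± 0.16. Of 12 lymphocyte genes the T cell receptor partners Cd4 and Cd3d rose, by 0.28 ± 0.07 and 0.36 ± 0.10, and Cd8b1 fell by 0.51 ± 0.18. Of 17 macrophage genes Cd5l and Mpeg1 rose, and the receptors Vsig4, Cd14, Folr2 and Csf1r were lower at -0.85, -0.59, -0.44 and -0.38. Of 10 genes of antigen presentation by MHC class II, H2-DMa and H2-DMb2, which load peptides, rose by 0.27 ± 0.09 and 0.49 ± 0.13. Olfm4, a protein of a subset of neutrophils, rose by 1.41 ± 0.16 (adjusted p = 1.43e-05), from 10.16, 9.96 and 9.86 to 11.72, 11.16 and 11.33. Apol11b, an apolipoprotein L gene, rose by 1.35 ± 0.29, and Cd5l, a secreted protein of tissue macrophages, by 1.26 ± 0.43. The call of Cd5l was lost without any of the 5 pools other than 2-week replicate 1.

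Muscle, energy and housekeeping genes passed the test in few cases. Of 26 skeletal muscle genes 1 rose, Tnnt1, the troponin T of slow fibres, by 0.32 ± 0.10. The median of the list was 0.22, and 1.01 without 2-week replicate 1, when 3 genes of the list rose. None of 25 genes of the respiratory chain and citric acid cycle was called, while 10 rose and 1 fell without that pool. None of 15 ribosomal protein genes was called. Of 25 genes of the secretory pathway 5 fell, near the 16.7% of all genes lower, and they are given as values only. Kdelr3, which returns escaped proteins to the endoplasmic reticulum, stood at -1.44 ± 0.20. The transport vesicle genes Sec24d and Sec23a were at -0.88 and -0.52, and the transcription factors Creb3l1 and Creb3l2 at -0.87 and -0.68. Without 2-week replicate 1, 9 of the 25 fell, against 20.1% of all genes. In the fat cell, cholesterol and fatty acid, glycolysis and Schwann cell lists, the shares called lay near or under those of all genes (16.8% higher and 16.7% lower), and their genes are given as values only. Of 14 fat cell genes Car3 and Fabp4 were lower, at -0.58 and -0.45. Of 21 genes of cholesterol and fatty acid synthesis, Idi1, Fdft1, Nsdhl and Sqle of the cholesterol branch rose by 0.30 to 0.38, and Me1 was lower at -0.70. Of 22 genes of glycolysis and glycogen, Hk1 and Gys1 rose by 0.45 ± 0.09 and 0.55 ± 0.15, and Pygb was lower at -0.23. Of 8 Schwann cell genes, the myelin genes Mbp and Pmp22 were called higher and lower, at 0.35 ± 0.06 and -0.87 ± 0.15. Of 14 circadian clock genes Dbp, Nr1d2, Bhlhe40 and Clock were lower, between -1.40 and -0.47, and 1 was called without 2-week replicate 2, 2-week replicate 3 or 16-week replicate 3. Of 8 genes on the list of cell cycle inhibitors and senescence, Cdkn2c and Lmnb1 rose by 0.42 ± 0.12 and 0.55 ± 0.12. Igfbp3, Cdkn1a, Ccnd1 and Glb1 of that list were lower, between -1.18 and -0.57.

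The change from 2 to 16 weeks in DMM joints shares no pool with that in sham joints. DMM had 2 pools at 2 weeks and 3 at 16 weeks. There, 9474 probe sets were called (42.1%), and 3034 genes were higher at 16 weeks (26.4%) and 2259 lower (19.6%). Of the 1925 genes that fell in sham joints, 1640 also fell in DMM joints (85.2% of the sham and 72.6% of the DMM genes). Of the 1939 that rose, 1690 also rose (87.2% and 55.7%), and no gene was called in opposite directions. Across the 11511 genes, which are not independent replicates, the sham and DMM differences correlated at 0.92.

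**Figure D4:**
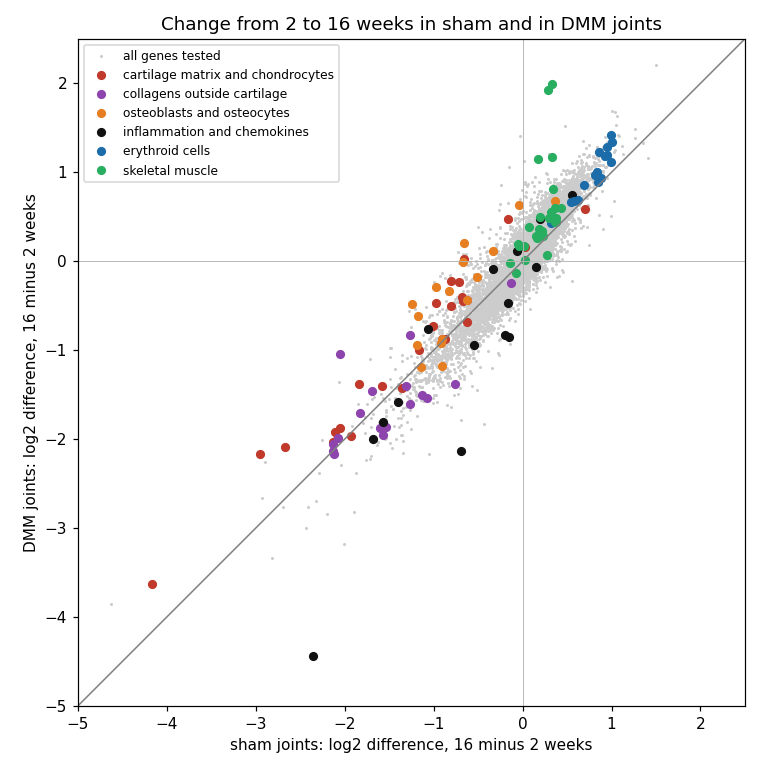
Log2 difference between 16 and 2 weeks of each gene tested in sham joints (x axis) and DMM joints (y axis), with 6 gene lists coloured and the line of equal change. Most genes lie along the line. Bone genes (orange) lie mostly above it and Saa3 (lowest black point) below it, and no probe set was called in the test of the difference.

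The difference between the changes was tested itself, as an interaction. None of the 22489 probe sets was called in limma (0%), and 1224 had an unadjusted p under 0.05. Some named genes and lists are given side by side. Which ones was not set by a rule, and the difference between operations was not called for any of these genes. Col2a1 differed by -2.95 ± 0.33 in sham and by -2.17 ± 0.36 in DMM joints (unadjusted p of the difference = 0.125). Saa3 differed by -2.35 ± 0.67 in sham and by -4.43 ± 0.75 in DMM joints (unadjusted p = 0.0506). Acp5 fell by 1.00 ± 0.14 in sham joints and stood at -0.24 in DMM joints, where it was not called (unadjusted p of the difference = 0.00122, adjusted p = 0.64). Phex differed by -1.25 ± 0.14 in sham and by -0.48 ± 0.16 in DMM joints (unadjusted p = 0.00155, adjusted p = 0.71). The osteoblast list had 14 of 16 genes lower in sham and 8 in DMM joints, with medians of -0.86 and -0.38, and the osteoclast list 7 and 2 of 11 genes, with medians of -0.36 and -0.01. The fibrous collagens had 19 of 20 lower in both, with medians of -1.55 and -1.57, and the red cell list had 13 and 16 of 16 genes higher.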

How the data were processed

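Each pool was hybridised to 1 single-colour Affymetrix mouse array of 45101 probe sets. The authors scaled the arrays to each other with their systematic variation normalization, and the deposited log2 signals entered the fit without further scaling. The arrays' number limits the precision, since 3 pools against 3 cannot reach an exact p below 0.1. Pools came from separate mice.

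The linear model (limma 3.58.1, R 4.3.3) had a coefficient for each of 9 conditions and used all 26 arrays (17 residual degrees of freedom) and no block, and p-values were adjusted by Benjamini-Hochberg (called under 0.05). Tested were the brighter probe sets (mean log2 signal above 7.9256) without array controls. The fit was tested on simulated data. Probe sets were named from GEO's platform annotation, where 34945 have 1 gene symbol, 932 several and 9160 none, and only the first kind stood for genes. Of 858 entries in 41 gene lists, 769 matched. A gene in several lists counts in each.

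Named genes are the 15 highest and 15 lowest differences among called genes with pools apart, and of each list the 4 brightest members and the 4 with the largest absolute difference. Acan, Ccnb2 and genes named because 5 or fewer of a list were called in that direction can fall outside this rule and were chosen after their values were seen, as were the promoter motifs CCAAT and TTTGAA. The members, lists and tests were chosen with earlier results of these data known. Alternatives were no filter or a stricter one, a fit of only the groups compared, array weights, 2 other scalings, a floor at the array median, a muscle or Gapdh covariate, a trended variance, the mean over probe sets, a replicate block and leaving out each pool.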

Additional observations from a re-analysis of the deposited data

How the results depend on the processing

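With a stricter brightness filter, 4322 were called between 2 and 16 weeks in sham joints (1935 lower) and 5837 in DMM joints (3413 higher, 2424 lower), where fewer probe sets were tested. With only the groups compared in the fit, 2589 were called in sham joints (803 higher, 1786 lower), where fewer arrays gave the spread. Array weights gave 3571 (1364 higher, 2207 lower), with weights whose estimation stopped before full convergence, and the cause was not tested. Leaving out 1 pool gave 3453 (without 2-week replicate 3) to 8976 (without 2-week replicate 1) called in sham joints, 1344 to 4683 higher and 2109 to 4293 lower, and without 16-week replicate 1 it was 4289. In DMM joints it gave 6475 to 8764 called, 3460 (without 2-week replicate 3) to 4756 higher and 3015 to 4008 lower. The change in DMM minus that in sham joints had 0 called under each alternative. No named gene that was called changed direction under any alternative.

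As the mean of their probe sets Panx3, Ptn and Sdc1 stood at -0.95, -1.05 and -0.79. With signals set to at least the array median Ptn, Epyc and Tnmd, whose 16-week signals were in part under it, stood at -1.80, -1.98 and -2.20. With array weights Mmp3 and Saa3 stood at -1.31 and -1.48. With array weights the inflammation list had 2 genes lower, the immediate early list 4 and the mast cell list 1 higher. With the stricter filter the limb transcription factor list had 6 lower. That filter leaves genes with a dimmer probe set untested, and how many of this list stayed tested is not given here.

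Of 100 named genes that fell 80 kept their call whichever pool was left out, and of 43 that rose 21 did. Dbp, Has1, Fkbp11, Cd5l, Itgb3, Car2, Lef1, Clock, Clic5, Cd14, Vsig4, Cd8b1, Ms4a3, Zfp36, H2-DMa, Pygb, Cfp and Fdft1 lost it without several single pools, as did Nr1d2, C3ar1, Gys1, Rsad2, Cdkn2c, Tnnt1, H2-DMb2, Cd3d, Mmp9, Fabp4, Car3, Prg4, Rhd and Sox6, in each case including 2-week replicate 3. Mki67, Ccnb2, Ccl5, Cemip2 and Folr2 lost it without that pool alone, and Mmp3, Saa3, Fos, Csf3r and Fcer1a without 2-week replicate 2 alone.

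The labels do not say whether equal replicate numbers pair the pools, and the main fit did not treat them as paired. Deviations of same-numbered sham pools correlated at 0.54, 0.07 and 0.37, and those of unlike numbers at -0.51 to 0.18. Each 2-week pool correlated best with the 16-week pool of its number, but 16-week replicate 2 correlated best with 2-week replicate 3 (0.18). What lies behind these correlations was not tested. With the replicate number as a block, 7566 probe sets were called in sham joints (3795 higher, 3771 lower) and 9298 in DMM joints.

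With 3 pools a group, and 2 for DMM at 2 weeks, the number of arrays limits the precision, most for the small rises and for genes close to the background.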
